A study of Mus musculus with 9 samples.

Results

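The genes described here encode the proteins of the mitochondrial ribosome. They are the protein coding genes whose symbol starts with Mrpl or Mrps followed by a digit, which gave 78 members among the 54232 genes of the count table, 49 of them named for the large subunit (Mrpl) and 29 for the small subunit (Mrps). The study measured RNA of whole lacrimal glands, the tear-producing glands of the orbit, from female C57BL/6J mice that were fed without restriction. Each age, 2, 12 or 24 months, had 3 of the 9 libraries, and no group carried a treatment or an engineered allele. The labels do not say whether a library came from 1 animal or from several, so the p-values measure the spread between these libraries. The series concerns lymphoid tissue that forms in the aged gland, and each older age was compared with 2 months and 24 months with 12 months.

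The mitochondrial ribosome sits inside the organelle and makes the few proteins that mitochondrial DNA encodes, all of them subunits of the respiratory chain and of the ATP synthase. Its RNA comes from mitochondrial DNA, whereas all its proteins are encoded in the nucleus, made in the cytosol and imported. It carries proteins with bacterial counterparts and others found only in mitochondria. The small subunit reads the messenger RNA and the large subunit joins the amino acids, and structures of the pig and human ribosomes place the proteins in each. In a gland that secretes protein and fluid, such as the lacrimal gland, mitochondria supply the ATP for synthesis, secretion and ion pumping.

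Libraries held 40516863 to 42573877 counts, and the 77 tested members had 79 to 1579 counts in a library. The 10 most abundant genes held 66.4 ± 1.78% of all counts at 2 months, 64.2 ± 1.34% at 12 months and 63.7 ± 3.18% at 24 months (SD, n = 3 each). Levels are therefore given as CPM (counts relative to the size of the library) after TMM scaling, which sets libraries to the typical gene and leaves the few very abundant genes with little weight. The scaling matters for these members. With library totals alone, the median tested gene had a log2 fold change of 0.31 at 12 against 2 months and of 0.31 at 24 against 2 months, against 0.01 in each with TMM, so a fold change below is relative to the typical gene unless library totals are named. All 8 acinar marker genes of the lacrimal gland were tested. They summed to 323350 to 409368 CPM at 2 months, 274354 to 304960 CPM at 12 months and 264317 to 360826 CPM at 24 months. The 8 did not move together: at 12 and at 24 against 2 months 3 had a fold change above 0 and 5 below. Their median log2 fold changes were -0.14 and -0.08. Of them 0 and 1 were called lower, beside 2.52% and 7.56% of all genes, and 0 higher. The summed B cell markers (10 genes) were 0.617 to 0.772 CPM at 2 months, 21.2 to 191 CPM at 12 months and 17.1 to 31.7 CPM at 24 months, and the 8 macrophage markers were 65.1 to 95.9, 190 to 254 and 258 to 366 CPM at those ages. The T cell markers (10 genes) were 1.64 to 2.54, 9.52 to 39.4 and 11.6 to 24.5 CPM, the plasma cell markers (6 genes) 13.5 to 30.7, 40.5 to 139 and 97.9 to 147 CPM, and the adipocyte markers (8 genes) 1.5 to 2.09, 10.9 to 37.9 and 10.8 to 31.4 CPM at 2, 12 and 24 months. In whole glands a smaller share of acinar cells and less RNA of a gene per cell cannot be told apart, and the part of these cells in the results below was not tested. Of 8 salivary gland markers, 1 was at 0 in all libraries. They summed to 809 CPM in 2-month replicate 3, 359 CPM in 12-month replicate 2 and 244 CPM in 24-month replicate 2. Their sum was 69.0 CPM in 2-month replicate 2 and 0.399 to 7.12 CPM in the remaining libraries. Fits without salivary transcripts below leave out the 3 highest libraries and keep 2-month replicate 2. Skeletal muscle markers (6 genes) summed to 31.3 and 57.1 CPM in 12-month replicates 1 and 3, against 1.10 to 2.35 CPM in the other 7 libraries.

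Members differed in level far more than they changed with age. Per kilobase of exon, the level averaged over 9 libraries ran from 0.652 CPM for Mrpl33 to 32.3 CPM for Mrps21, a 49.6-fold range. Below Mrps21 came Mrpl54 at 26.6 and Mrps28 at 25.3 CPM per kilobase, and above Mrpl33 came Mrpl19 at 0.823 CPM per kilobase. The median member stood at 6.23 CPM per kilobase in the large subunit and 2.48 CPM per kilobase in the small subunit, although an assembled ribosome holds most of its proteins in equal number. The exon length is the union of all annotated transcripts, so genes with long minor transcripts are listed low on this scale. Mrpl53, a large subunit protein on chromosome 6, was at 0 counts in every library. In the annotation, 88.0% of its 790 exon bases are shared on the same strand with Gm42688, which had 74 counts over all libraries, and Mrpl53 is not tested below. Within an age, members varied little: the median SD of log2 CPM was 0.148 over members and 0.168 over the 7648 other tested genes in the same range of level. Mrpl19 varied most, with an SD of 0.281, and Mrpl36 least, with 0.0456.

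At 24 against 2 months, 19 of 77 members were lower and 0 were higher, by edgeR's quasi-likelihood test with Benjamini-Hochberg adjustment under 0.05 over all tested genes. That is 24.7% of the members, whereas 7.56% of all 14944 tested genes were called lower and 9.82% higher, 17.4% in all. The falls were modest, with log2 fold changes of -0.31 to -0.65 and adjusted p of 0.00319 to 0.0405. The median log2 fold change was -0.27 over the members and 0.01 over all tested genes, and 69 of 77 members had a fold change below 0. The 3 libraries of each age did not overlap for 42 members that were lower and 0 that were higher at 24 months, beside 16.7% of all genes lower without overlap and 18.4% higher.

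The largest fall was that of Mrpl57 (ENSMUSG00000021967, chr14:57826234-57829296 in GRCm38, plus strand), a mitochondria-specific protein of the large subunit. It had 20.7, 25.7 and 24.0 CPM at 2 months, 15.0, 17.3 and 18.9 CPM at 12 months and 15.4, 15.2 and 14.2 CPM at 24 months. All libraries of both older ages lay below the lowest 2-month library. The log2 fold change was -0.65 ± 0.11 (SE) at 24 against 2 months, with an adjusted p of 0.00319. Mrpl52 (ENSMUSG00000010406, chr14:54426909-54429756, plus strand), also specific to mitochondria and in the large subunit, had 21.9, 32.6 and 25.8 CPM at 2 months, 20.4, 22.1 and 23.2 CPM at 12 months and 17.4, 17.6 and 16.9 CPM at 24 months. Its 24-month libraries were close together and below all others, while the ranges at 12 and 2 months overlapped. It fell at 24 against 2 months by 0.63 on the log2 scale (SE 0.13, adjusted p = 0.00726). Mrps28 (ENSMUSG00000040269, chr3:8802146-8923918, minus strand), the counterpart of the bacterial protein S1 in the small subunit, had 22.0, 27.9 and 21.6 CPM at 2 months, 18.2, 19.9 and 21.9 CPM at 12 months and 16.3, 14.5 and 16.1 CPM at 24 months. The order of ages was that of Mrpl52, with 24 months apart from the other two and a log2 fold change of -0.61 ± 0.12 at 24 against 2 months (SE, adjusted p = 0.00581).

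**Figure D1:**
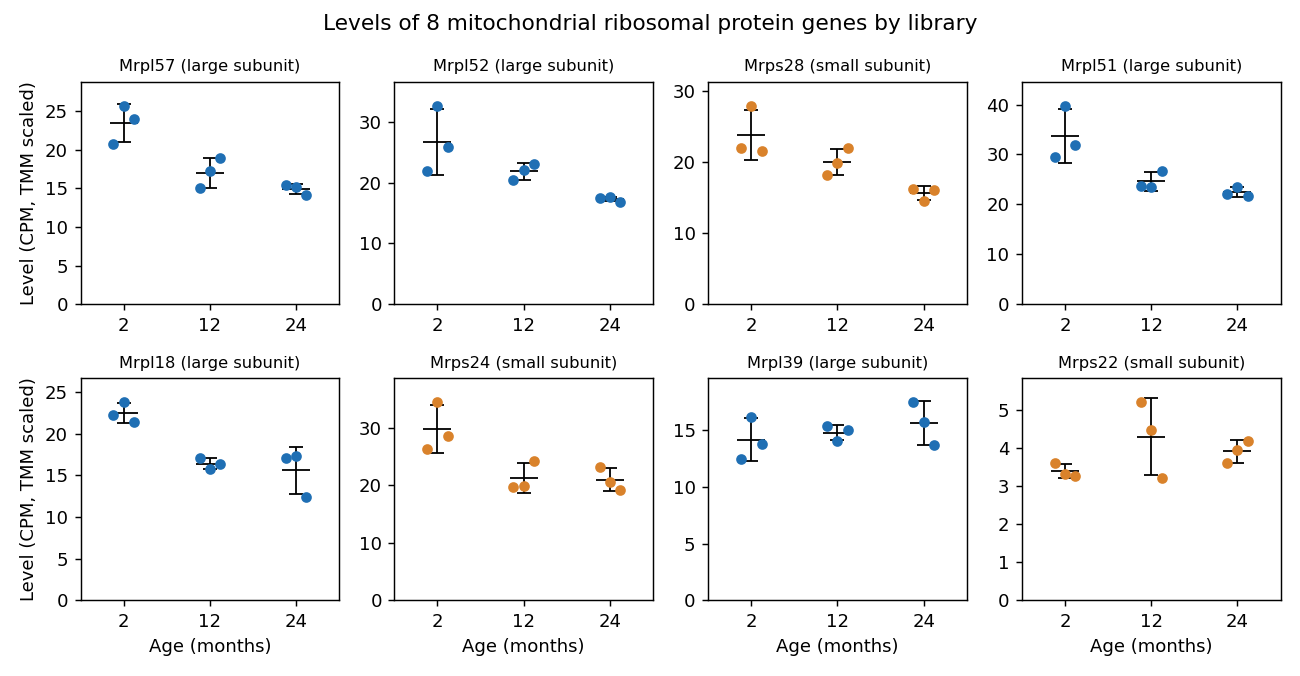
Levels of 8 members in each library, in CPM after TMM scaling, at 2, 12 and 24 months (blue, large subunit; orange, small subunit; black bar and whiskers, mean ± SD of 3 libraries). Mrpl57, Mrpl52, Mrps28, Mrpl51, Mrpl18 and Mrps24 lie lower at 24 months than at 2 months without overlap, whereas the 3 ages overlap for Mrpl39 and Mrps22.

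Mrpl51 (chr6:125191801-125196269, plus strand), a mitochondria-specific large subunit protein, had 29.5, 39.7 and 31.8 CPM at 2 months, 23.7, 23.4 and 26.7 CPM at 12 months and 22.1, 23.5 and 21.7 CPM at 24 months. Both older ages were below 2 months in every library. Its log2 fold change was -0.58 at 24 against 2 months (adjusted p = 0.00545). Mrpl18 (chr17:12911349-12916345, minus strand) belongs to the central protuberance of the large subunit and has a bacterial counterpart. It had 22.2, 23.8 and 21.4 CPM at 2 months, 17.1, 15.8 and 16.3 CPM at 12 months and 17.1, 17.3 and 12.4 CPM at 24 months, with a log2 fold change of -0.53 at 24 against 2 months (adjusted p = 0.0137). Its 24-month replicate 3 was the lowest of the 9 libraries. Mrpl18 shares 141 of its exon bases with Tcp1 on the opposite strand, and the strand setting of the counting is not given in the sources used here. Mrpl22 (chr11:58171661-58179565, plus strand), which lines the exit tunnel of the large subunit, had 8.50, 12.0 and 10.05 CPM at 2 months, 7.02, 8.05 and 8.63 CPM at 12 months and 7.33, 6.62 and 7.35 CPM at 24 months. All its 24-month libraries were below its 2-month ones (log2 fold change -0.52, adjusted p = 0.0304), while one 12-month library reached into the 2-month range.

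Mrps12, the small subunit protein next to the decoding site, had 26.9, 26.8 and 28.3 CPM at 2 months, 22.2, 22.3 and 27.1 CPM at 12 months and 19.5, 19.7 and 18.8 CPM at 24 months (log2 fold change -0.50, adjusted p = 0.00537). Its 24-month libraries stood below all the others, and its 12-month replicate 3 lay inside the 2-month range. Of the stalk proteins that recruit translation factors, Mrpl12 had 17.6, 20.02 and 19.0 CPM at 2 months, 12.9, 14.3 and 14.3 CPM at 12 months and 14.3, 13.3 and 13.7 CPM at 24 months (log2 fold change -0.45 at 24 against 2 months, adjusted p = 0.00878). Mrpl12 was thus already low at 12 months. Its partners at the stalk base did not pass the test: Mrpl11 had a log2 fold change of -0.28 (adjusted p = 0.149) and Mrpl10 one of 0.11 (adjusted p = 0.54). Mrpl36, a small protein of the large subunit with a bacterial counterpart, had 23.5, 23.0 and 24.4 CPM at 2 months, 18.7, 18.9 and 18.0 CPM at 12 months and 18.4, 17.9 and 17.0 CPM at 24 months (log2 fold change -0.41 at 24 against 2 months, adjusted p = 0.00689). Its libraries agreed most closely within an age, and the 2-month group stood clear of both older ones. The other members called at 24 against 2 months were Mrps24, Mrpl30, Mrpl47, Mrps21, Mrpl54, Mrps26, Mrpl2, Mrps7, Mrps14 and Mrpl28, with log2 fold changes of -0.31 to -0.52.

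Under library totals 0 of these 19 members was called lower at 24 against 2 months, although all 19 still had a fold change below 0, where 1.28% of all genes were called lower and 17.6% higher. The member median was then 0.04, against 0.31 for all genes, and 31 of 77 members were below 0. The 1 member called there was Mrpl39, a mitochondria-specific large subunit protein, which was higher (log2 fold change 0.44, adjusted p = 0.0223). The number called lower with TMM was 7 without 2-month replicate 2, beside 3.03% of all genes, and 12, 11 and 9 without 24-month replicates 1, 2 and 3, beside 6.24%, 4.48% and 3.59% of all genes. Without the 3 libraries richest in salivary transcripts it was 0, beside 0.944% of all genes called lower, while the member median stayed at -0.29. Mrpl57, Mrpl52, Mrps28, Mrpl51, Mrps12, Mrpl12 and Mrpl36 kept their calls when any 1 library was left out, and the other 12 lost theirs in at least 1 such fit. Mrpl18 lost it without 2-month replicate 2 (adjusted p = 0.0591), as did Mrps24 (0.0757, and 0.0669 without 24-month replicate 3), and Mrpl22 had its highest adjusted p, 0.127, without that library.

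**Figure D2:**
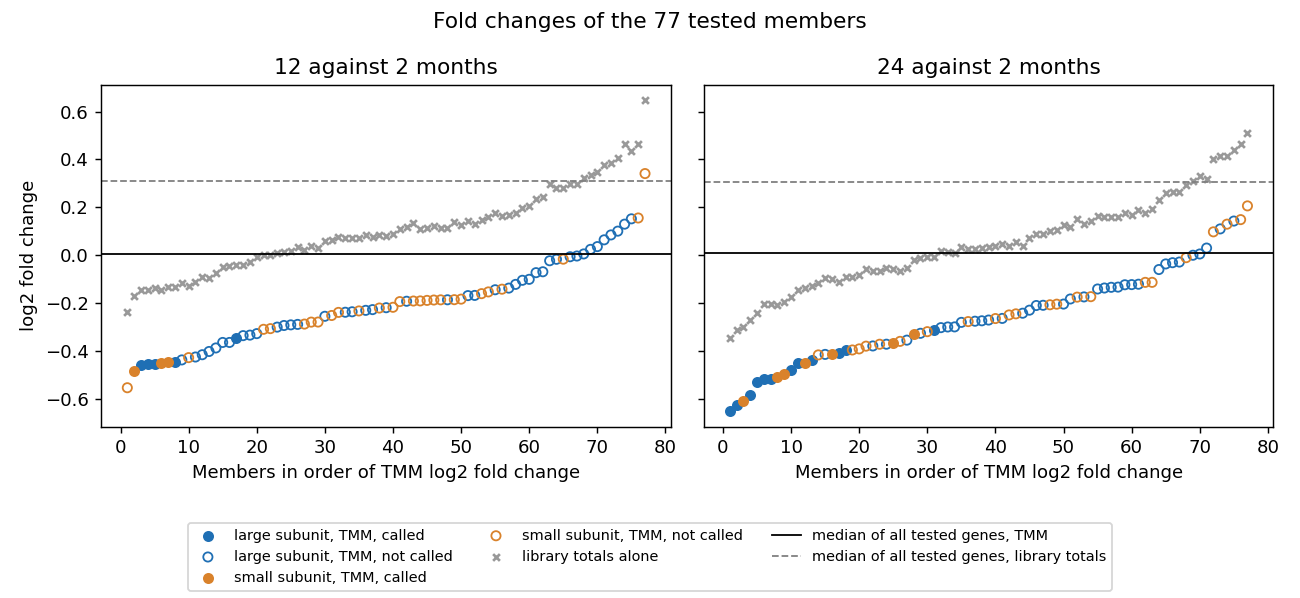
Log2 fold changes of the 77 tested members at 12 against 2 months (left) and 24 against 2 months (right), ordered by their TMM value (circles, filled where called, blue for the large and orange for the small subunit; grey crosses, library totals alone; solid and dashed lines, median of all tested genes under each scaling). With TMM most members lie below the median gene. With library totals the member medians are 0.09 and 0.04, and most members lie below a median gene at 0.31. Some lie above it, the highest at 0.65 and 0.51.

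At 12 against 2 months, 8 of 77 members (10.4%) were called lower and 0 higher, where 2.52% of all genes were called lower and 5.41% higher, 7.93% in all. They were Mrps24, Mrpl57, Mrpl18, Mrpl51, Mrps7, Mrps21, Mrpl12 and Mrpl36, with log2 fold changes of -0.35 to -0.48 and adjusted p of 0.0156 to 0.0488. The member median was -0.22, against 0.01 for all genes, and 67 of 77 fold changes were below 0. The groups did not overlap for 29 members that were lower and for 1 that was higher, beside 12.4% and 15.1% of all genes. The comparison shares its 2-month libraries with that at 24 months, so the 2 are not independent.

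Of the 8, 3 belong to the small subunit and have bacterial counterparts. Mrps24, which lies at the entry of the messenger RNA channel, had 26.4, 34.5 and 28.6 CPM at 2 months, 19.7, 19.8 and 24.3 CPM at 12 months and 23.1, 20.5 and 19.2 CPM at 24 months (log2 fold change -0.48 at 12 against 2 months, adjusted p = 0.0327). Mrps7, a protein of the small subunit head, had 25.9, 30.4 and 24.2 CPM at 2 months, 19.9, 17.4 and 21.7 CPM at 12 months and 20.2, 20.9 and 21.3 CPM at 24 months (log2 fold change -0.45 at 12 against 2 months, adjusted p = 0.0262). For Mrps21, also in the small subunit, the values were 24.4, 34.1 and 28.7 CPM at 2 months, 20.6, 19.4 and 24.0 CPM at 12 months and 20.6, 22.9 and 20.4 CPM at 24 months (log2 fold change -0.45 at 12 against 2 months, adjusted p = 0.0488). In all 3 of them both older ages lay below the lowest 2-month library, and 2-month replicate 2 was the highest of the 9 libraries. Mrps24 shares 226 exon bases with Urgcp on the same strand, and Mrps7 shares 127 bases with Gga3 and 119 with Mif4gd on the opposite strand. Mrps11, in the platform of the small subunit, had the lowest fold change without a call: it had 4.68, 5.99 and 5.35 CPM at 2 months, 3.41, 3.68 and 3.82 CPM at 12 months and 4.64, 4.54 and 3.32 CPM at 24 months (log2 fold change -0.55 at 12 against 2 months, adjusted p = 0.0788, and 0.044 by DESeq2).

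With library totals 0 members were called at 12 against 2 months, where 0.535% of all genes were called lower and 10.8% higher. The member median was 0.09 against 0.31 for all genes, and 21 of 77 members were below 0. With TMM the count of 8 was 0 without 2-month replicate 2, beside 0.781% of all genes, and 1 without each of 2-month replicate 3, 12-month replicate 1 and 12-month replicate 2 (beside 1.13%, 1.26% and 0.671% of all genes). It was 0 without the 3 libraries rich in salivary transcripts, beside 0.199% of all genes, and 1 without the 2 libraries with muscle transcripts, beside 0.644%. None of the 8 kept its call in all fits that left out 1 library. The highest adjusted p over those fits was 0.145 for Mrps24, 0.109 for Mrpl57, 0.159 for Mrpl18, 0.132 for Mrpl51, 0.136 for Mrps7, 0.206 for Mrps21, 0.0656 for Mrpl12 and 0.0912 for Mrpl36, with fold changes below 0 in all of them.

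Between 24 and 12 months no member was called in either direction, where 2.79% of all genes were called higher and 1.6% lower, 4.39% in all. At an unadjusted p under 0.05, 1 member was higher and 4 were lower. The share of all genes at that threshold is not given here, so nothing is read from these counts. The member median was -0.06, against -0.02 for all genes, and this comparison was nearly untouched by the scaling, with a member median of -0.07 under library totals and 0 members called, where 1.35% of all genes were called higher and 0.923% lower. The groups did not overlap for 4 members that were higher and 8 that were lower at 24 months, beside 12.1% and 12.6% of all genes. The largest difference was that of Mrps31, a mitochondria-specific small subunit protein, which had 5.26, 4.38 and 4.27 CPM at 24 months, against 2.67, 3.23 and 3.54 CPM at 12 months (log2 fold change 0.56 ± 0.18 SE, adjusted p = 0.104). DESeq2 called this 1 member higher (adjusted p = 0.0495), beside 4.97% of all genes, and at 2 months its libraries had 4.41, 3.73 and 4.56 CPM. Mrps36 (0.34, adjusted p = 0.504) and Mrps23 (0.28, adjusted p = 0.36) came next. At the other end were Mrpl33 (-0.39, adjusted p = 0.278), Mrps28 (-0.36, adjusted p = 0.113) and Mrpl52 (-0.34, adjusted p = 0.166).

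In a test of the 3 ages together, 14 of 77 members were called, beside 17% of all genes called in either direction. Read without direction, the members' share of calls was thus near that of all genes. With TMM every member called in a pair of ages was lower at the older one, whereas more of all genes were called higher than lower in each pair.

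Large and small subunit genes were measured side by side. At 24 against 2 months 12 of 48 large and 7 of 29 small subunit members were called lower, beside 7.56% of all genes. At 12 against 2 months 5 of 48 and 3 of 29 were called lower, beside 2.52% of all genes. The median log2 fold changes were -0.27 for the large and -0.28 for the small subunit at 24 against 2 months, and -0.22 for each at 12 against 2 months. The ratio of large to small subunit counts within a library, which no scaling between libraries can change, was 2.00, 2.05 and 2.06 at 2 months, 2.08, 2.08 and 2.06 at 12 months, with 2.14, 2.12 and 2.04 at 24 months. The means were 2.04 ± 0.0298, 2.07 ± 0.0141 and 2.10 ± 0.0537 (SD, n = 3 each), so the ages differed by about as much as replicates did. The ratio gives weight to abundant members. The ratio of geometric means, which weights members equally, was 1.37, 1.40 and 1.37 at 2, 12 and 24 months.

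Symbols do not fully follow the structure. Mrps30 and Mrps18a lie in the large subunit in spite of their names, and Mrps36 has been assigned to the 2-oxoglutarate dehydrogenase complex rather than to the ribosome. With members placed by structure the ratio was 2.28 ± 0.0368 at 2 months, 2.33 ± 0.0261 at 12 months and 2.36 ± 0.0458 at 24 months (SD, n = 3 each). The calls were then 12 of 50 large and 7 of 26 small subunit members at 24 against 2 months, beside 7.56% of all genes called lower. None of these 3 genes passed a test: at 24 against 2 months the log2 fold changes were -0.40 for Mrps30 (adjusted p = 0.0642), -0.21 for Mrps18a (adjusted p = 0.15) and 0.15 for Mrps36 (adjusted p = 0.731). The other relatives of the bacterial protein S18 were Mrps18b, with -0.11 (adjusted p = 0.739), and Mrps18c, with -0.42 (adjusted p = 0.0807). By origin, 14 of 46 members with a bacterial counterpart and 5 of 30 mitochondria-specific ones were called lower at 24 against 2 months. The share of all genes was 7.56%, and the medians of these 2 groups were -0.27 and -0.21.

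The share of all counts held by the members gave no such difference between ages. It was 0.102%, 0.100% and 0.0972% at 2 months, 0.100%, 0.108% and 0.107% at 12 months, with 0.0899%, 0.102% and 0.110% at 24 months, so the ranges overlapped and 24 months was widest. In contrast the summed CPM after TMM scaling was 1153 ± 93.1 at 2 months, 977 ± 54.8 at 12 months and 938 ± 26.5 at 24 months (SD, n = 3 each), and neither older age reached the 2-month range. The 2 measures use different totals, and the cause of their difference was not tested. With the 10 most abundant genes left out of the total, the members' share was 0.298 ± 0.0142% at 2 months, 0.294 ± 0.0104% at 12 months and 0.277 ± 0.0159% at 24 months.

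**Figure D3:**
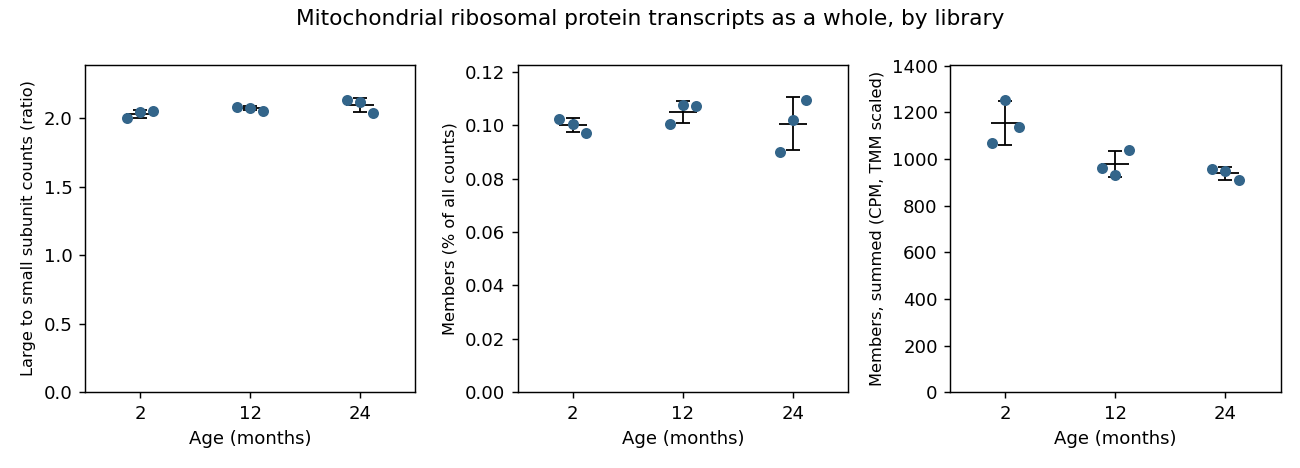
The members as a whole in each library at 2, 12 and 24 months: ratio of large to small subunit counts (left), percent of all counts (middle) and summed CPM after TMM scaling (right), with mean ± SD of 3 libraries. The ratio stays between 2.00 and 2.14 and the share near 0.1%, while the TMM-scaled sum is lower at 12 and 24 months than at 2 months.

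Shares of the members' own counts do not depend on the scaling, and those of 3 members are given as examples. As a percent of the counts of all members, Mrpl57 made up 1.94%, 2.05% and 2.11% at 2 months, 1.56%, 1.85% and 1.82% at 12 months, with 1.61%, 1.61% and 1.56% at 24 months. Mrpl39 went the other way, with 1.16%, 1.29% and 1.22% at 2 months, 1.60%, 1.51% and 1.44% at 12 months, with 1.83%, 1.66% and 1.51% at 24 months. For Mrpl10 the shares were 1.20%, 1.16% and 1.36% at 2 months, 1.53%, 1.44% and 1.22% at 12 months, with 1.61%, 1.76% and 1.56% at 24 months. In all, 13 members had a higher and 9 a lower share at 24 than at 2 months without overlap of the libraries, which is 16.9% and 11.7% of the 77. Counts of all 14944 tested genes, taken against the same member total, gave 37.8% higher and 4.94% lower without overlap, and nothing is read from the members' counts here. The shares sum to a whole, so a lower share of some members raises that of others. On the TMM scale Mrpl39 had 12.5, 16.2 and 13.8 CPM at 2 months, 15.4, 14.1 and 15.0 CPM at 12 months and 17.5, 15.8 and 13.7 CPM at 24 months, which overlap (log2 fold change 0.14 at 24 against 2 months, adjusted p = 0.47).

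The members furthest above 0 with TMM were mostly among those with few counts. Mrps22, a mitochondria-specific small subunit protein, had 3.59, 3.32 and 3.25 CPM at 2 months, 5.19, 4.48 and 3.20 CPM at 12 months and 3.59, 3.94 and 4.19 CPM at 24 months. Its 12-month replicate 3 was the lowest of the 9, and neither log2 fold change passed (0.34, adjusted p = 0.331 at 12 months, and 0.21, adjusted p = 0.518 at 24 months, each against 2 months). Mrps10 at 12 against 2 months was the 1 member higher without overlap (log2 fold change 0.16, adjusted p = 0.5), followed by Mrpl33 (0.15, adjusted p = 0.686). Mrpl33 was at -0.08 in that comparison without the libraries with muscle transcripts. Others hardly moved: Mrpl45, which anchors the human ribosome to the inner membrane beside the tunnel exit, had log2 fold changes of -0.02 at 12 months and -0.00 at 24 months against 2 months. Mrpl44, a large subunit protein with a ribonuclease-like fold, had 10.1, 10.9 and 11.5 CPM at 2 months, 12.2, 10.8 and 11.8 CPM at 12 months and 10.9, 10.3 and 8.50 CPM at 24 months. Mrpl58, a peptidyl-tRNA hydrolase that rescues stalled ribosomes and is also built into the large subunit, had 13.4, 21.5 and 16.8 CPM at 2 months, 15.1, 15.0 and 16.6 CPM at 12 months and 15.4, 12.7 and 14.5 CPM at 24 months.

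The fold change varied with level and length among members. Across the 77 tested members, Spearman's rho between mean CPM and the log2 fold change was -0.42 at 24 against 2 months and -0.31 at 12 against 2 months, against -0.16 and -0.17 across the 7642 other tested genes in the same range of level that have an exon length. Genes are not independent replicates and share the 9 libraries, so these are descriptions. Members with under 2000 exon bases (30) had a median log2 fold change of -0.32 at 24 against 2 months, against -0.20 for 904 other short genes of that level range. Members of 2000 bases or more (47) had -0.24, against 0.01 for 6738 others. At 12 against 2 months the medians were -0.24 for short members, against -0.15 for other short genes, and -0.19 for longer members, against 0.01 for other longer genes. Short genes of this range thus also lay below the typical gene at both older ages, and the part of length in the members' values was not tested.

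**Figure D4:**
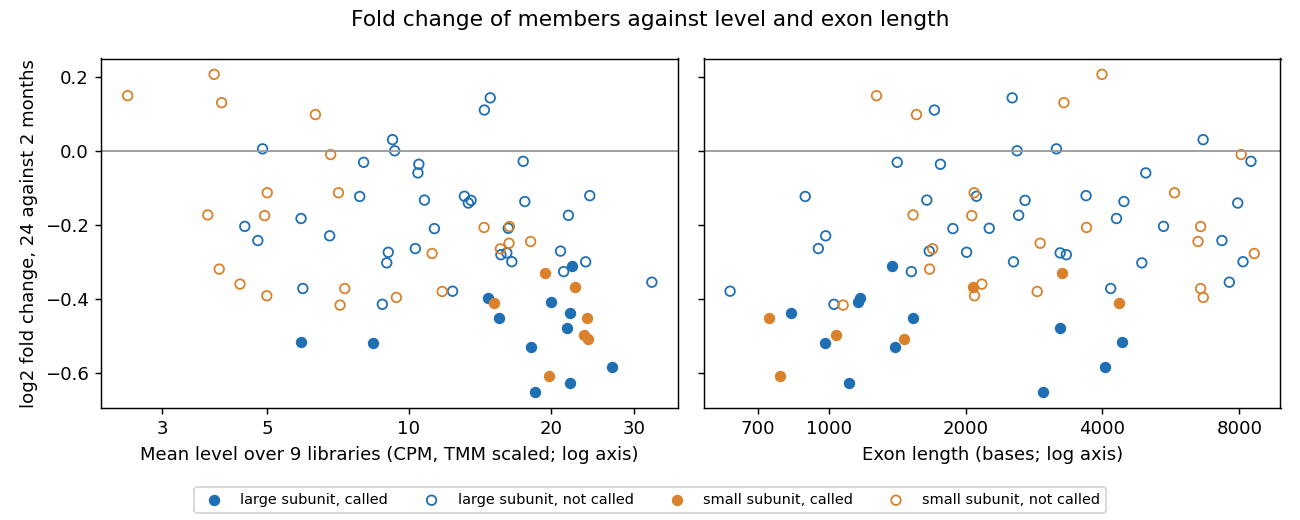
Log2 fold change at 24 against 2 months of each tested member with TMM, against its mean level over the 9 libraries in CPM (left, log axis) and its exon length in bases (right, log axis); filled points are called. Members of higher level and shorter exons tend to lie lower, with Spearman's rho of -0.42 with level and 0.28 with length.

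Libraries of 1 age differed across many members at once. After TMM scaling, 2-month replicate 2 was the highest of its age for 50 of 77 members and 2-month replicate 1 the lowest for 46. At 12 months replicate 3 was the highest for 45, and at 24 months replicate 3 was the lowest for 37. The TMM factor of 2-month replicate 2 was 0.801, the lowest of the 9, and that of 24-month replicate 3 was 1.21, the highest.

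Other genes of mitochondrial translation and upkeep are given beside the 7.56% of all genes that were called lower at 24 against 2 months. Of 5 ribosomal proteins listed under other names, Gadd45gip1, a large subunit protein, was lower at 24 against 2 months (log2 fold change -0.67, adjusted p = 0.0132), with 5.71, 7.13 and 7.13 CPM at 2 months, 4.99, 5.40 and 5.86 CPM at 12 months and 4.64, 4.17 and 3.74 CPM at 24 months. Dap3, the GTP-binding protein of the small subunit, did not pass (-0.24, adjusted p = 0.147). Of 23 assembly factors 1 was called lower at 24 against 2 months, Mterf3 (-0.56, adjusted p = 0.0451), which binds ribosomal RNA and mitochondrial DNA. Of 14 tested translation factors 1 was called lower, Tsfm (-0.54, adjusted p = 0.03), the exchange factor of the elongation factor Tufm, which itself did not pass (-0.26, adjusted p = 0.163). Of 19 mitochondrial aminoacyl-tRNA synthetases 2 were called lower at 24 against 2 months, Ears2 (-0.72, adjusted p = 0.0135) and Mars2 (-0.81, adjusted p = 0.0357). Among 10 genes for copying and transcribing mitochondrial DNA, Ssbp1, the single-strand binding protein, was called lower (-0.33, adjusted p = 0.0462). Among 9 regulators of mitochondrial biogenesis, Pprc1, a coactivator, was called lower at 24 months against both 2 months (-0.65, adjusted p = 0.0143) and 12 months (-0.70, adjusted p = 0.0224). No gene of these lists was called higher in any comparison, or lower at 12 against 2 months. The list medians at 24 against 2 months ran from -0.06 for the synthetases to -0.24 for the ribosomal proteins under other names. With library totals none of these lists had a gene called lower, 3 translation factors and 1 assembly factor were called higher at 24 against 2 months, and 2 translation factors were called higher at 12 against 2 months, where 17.6% and 10.8% of all genes were called higher.

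The 13 proteins that this ribosome makes are encoded by mitochondrial DNA. Of their genes, 3 were called lower at 12 against 2 months and 5 at 24 against 2 months. The shares of all genes called lower were 2.52% and 7.56%. The medians of the 13 genes were -0.45 and -0.40, and 0 were called higher, beside 5.41% and 9.82% of all genes. The messages mt-Co3 and mt-Atp6, for subunits of cytochrome oxidase and of the ATP synthase, had log2 fold changes of -0.65 (adjusted p = 0.0196) and -0.62 (adjusted p = 0.0259) at 24 against 2 months, and mt-Nd4, of complex I, one of -0.52 (adjusted p = 0.0424). Levels of mt-Co3 were 5.05, 4.77 and 3.79 CPM at 24 months, against 5.88, 7.55 and 7.98 CPM at 2 months, and those of mt-Co1 were 4077, 3261 and 2941 CPM at 24 months, against 4090, 3883 and 4329 CPM at 2 months. Near-identical copies of mitochondrial DNA in the nuclear genome can take reads from such genes, and mt-Co3, mt-Atp6 and mt-Co2, all under 10 CPM, are uncertain for that reason. The 13 genes held 1.42 ± 0.104% of all counts at 2 months, 1.30 ± 0.120% at 12 months and 1.35 ± 0.0680% at 24 months (SD, n = 3 each), and with library totals none was called.

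Promoters of the members were searched for motifs because nuclear genes of mitochondrial ribosomes are known to be under factors such as NRF-1 and the ETS factor GABPA (NRF-2) in mammals. RefSeq windows of GRCm38.p6, from 250 bases before to 50 bases after the start, were matched for 69 of 78 members. Of those 69, 26 (37.7%) held the ETS motif CCGGAAG on either strand, against 9.93% of all 27025 windows and 19.3% of 10180 other tested protein coding genes. The NRF-1 motif GCGCANGCG was in 16 (23.2%), against 7.03% and 14.7%, and the YY1 motif ANATGGCGG in 7 (10.1%), against 2.19% and 4.47%. TATAAA was in 5 (7.25%), against 15.7% and 9.15%, and the E-box CACGTG in 5 (7.25%), against 8.09% and 11.6%. In the members, 40 held at least 1 of the first 3 motifs, 6 held both the ETS and the NRF-1 motif, and no matches of 2 motifs overlapped. The 25 tested members with the ETS motif had a median log2 fold change of -0.35 at 24 against 2 months, and the 43 without it -0.21. The 16 with the NRF-1 motif had -0.20, and the 52 without it -0.27. A match is a run of letters in these windows and is not a measured site. Of 17 called members with a window, 8 (47.1%) held the ETS motif, 6 (35.3%) the NRF-1 motif and 0 the YY1 motif. Stretches of at most 120 bases without an annotated exon, just upstream of the annotated first exon, were taken for some called members and Mrps22. Those of Mrpl2, Mrpl28, Mrpl30, Mrpl36, Mrps12, Mrps14, Mrps24 and Mrps26 held none of these 3 motifs. The stretches of Mrpl30 and Mrpl36 had 65 and 101 bases. The rest of each 300-base window is not covered by this and may hold a motif. Stretches are shown in gene orientation, with the motif match in capitals, on whichever strand it reads. Those shown all hold a match and belong to 3 members that were lower at an older age and to Mrps22, which was not. They are Mrpl52 (chr14:54426789-54426908, plus strand), with an ETS match, Mrpl22 (chr11:58171541-58171660, plus strand), with an ETS and then an NRF-1 match, Mrpl12 (chr11:120484493-120484612, plus strand), with an NRF-1 match, and Mrps22 (chr9:98601680-98601799, minus strand), with an ETS match.
Mrpl52: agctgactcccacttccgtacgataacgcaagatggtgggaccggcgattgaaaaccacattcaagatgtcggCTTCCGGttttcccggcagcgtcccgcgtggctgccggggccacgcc
Mrpl22: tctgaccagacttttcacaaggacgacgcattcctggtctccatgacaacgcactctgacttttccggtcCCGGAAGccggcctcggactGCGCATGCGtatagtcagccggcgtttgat
Mrpl12: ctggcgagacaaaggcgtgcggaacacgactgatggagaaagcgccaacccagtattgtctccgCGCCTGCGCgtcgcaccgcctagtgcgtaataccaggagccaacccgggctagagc
Mrps22: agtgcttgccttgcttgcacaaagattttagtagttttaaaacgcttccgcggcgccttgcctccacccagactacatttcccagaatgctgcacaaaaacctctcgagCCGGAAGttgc
The ETS match is present both in Mrpl52 and Mrpl22, which were called lower at 24 against 2 months, and in Mrps22, which was not called. The Mrps22 libraries of those ages overlapped on the TMM scale. As a percent of the counts of all members they did not, with 0.335%, 0.265% and 0.287% at 2 months and 0.374%, 0.416% and 0.461% at 24 months. The part of the motif in these values was not tested.

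Gene models limit some values. Exon bases are shared with another gene in 33 members, and in 28 of them with a gene on the opposite strand, so reads of such pairs cannot be told apart without the strand setting. Mrpl46 and Mrps11, which start head to head on chromosome 7, overlap each other. Processed pseudogenes with member symbols drew few reads: Mrpl23-ps1 had 96 counts over all libraries, Mrpl48-ps 29, and the 3 pseudogenes of Mrps36 had 6, 1 and 0.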

How the data were processed

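Lacrimal gland total RNA was prepared with a Qiagen RNeasy Plus Micro kit and read as 100 bp pairs on a BGISEQ500RS instrument, per the labels' protocols. The deposited counts are whole reads per gene. The submitters' processing notes name cutadapt, FastQC, STAR, HTSeq, DESeq2 and the GRCm38 assembly, without versions. Strand setting, read filters and annotation release are not given there or in any other source used here. The authors' deposited log2 values equal log2(count / DESeq2 factor + 1) and served for that check alone. GENCODE M21 gave symbols for 54079 of 54232 gene IDs, gene types and exons.

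The main test was the quasi-likelihood F test of edgeR 4.0.16 (R 4.3.3) on the counts, with TMM factors, 1 model of the 3 ages over all 9 libraries, and genes kept by filterByExpr at a minimum count of 10. Benjamini-Hochberg adjustment ran over the 14944 genes tested, with calls under 0.05. The common biological coefficient of variation came to 21.2% on 6 residual degrees of freedom. The script was tested on simulated counts. Libraries held 40516863 to 42573877 counts, and a tested member had 79 or more in each. Fold changes are the older over the younger age. Alternatives were library totals alone, DESeq2 1.42.0, RLE factors, no filter, and leaving out antigen receptor genes. Others fitted the 2 ages compared alone, took the replicate number as a block, or left out libraries. Those left out were single libraries, the 3 richest in salivary transcripts, or the 2 with muscle transcripts. Libraries of the same number did not deviate together over the tested genes (correlations of -0.177 to 0.0465), and the main model has no replicate term. These correlations do not show what the numbers mean.

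Members, lists and tests were chosen with earlier results of these data known. Named members are those called (at most 6 in a direction and comparison), the 3 highest and 3 lowest fold changes of each comparison, the 3 most and 3 least abundant per exon length, and 13 with known roles; each pathway list adds up to 4 called genes. The remaining called members, Mrpl46, Dap3, Tufm and mt-Co1 fall outside this rule and were named after their values were seen.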

Additional observations from a re-analysis of the deposited data

How the results depend on the processing

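The median fold change of members was below 0 at 12 and at 24 against 2 months in every alternative run except library totals. There it was 0.086 and 0.036, with 0 members called lower at 12 months, 0 lower and 1 higher at 24 months. Of all genes, library totals gave 0.535% lower at 12 months, and 1.28% lower and 17.6% higher at 24 months. Over the 3 ages together 1 member was called there, beside 16.9% of all genes. DESeq2 called 10 and 20 members lower at 12 and 24 against 2 months, beside 4.7% and 8.95% of all genes, and 1 higher at 24 against 12 months, beside 4.97%. With a replicate block 2 and 12 members were called lower at 12 and 24 against 2 months, beside 1.27% and 5.28% of all genes. Over the 3 ages together 9 were called, beside 11%. Libraries of the same number showed no shared deviation, but what the numbers mean is not known here. Leaving out 1 library gave 0 to 9 members lower at 12 against 2 months, 7 to 22 at 24 against 2 months and 7 to 20 over the 3 ages, beside 0.671% to 2.72%, 3.03% to 7.19% and 9.01% to 16.4% of all genes. The medians then ran from -0.28 to -0.16, from -0.34 to -0.21 and, at 24 against 12 months, from -0.080 to 0.022. Without the 3 libraries richest in salivary transcripts 0 members were called lower at 12 and 0 at 24 against 2 months. Over the 3 ages 0 were called, and the shares of all genes in these tests were 0.199%, 0.944% and 3.13%. That fit kept 2-month replicate 2, the next of the libraries in salivary transcripts. Without those with muscle transcripts 1 was lower at 12 against 2 months and 9 were called over the 3 ages, beside 0.644% and 10.7% of all genes, the median at 24 against 12 months was 0.018 and Mrpl33 at 12 against 2 months was at -0.083. The large to small ratio was 2.28, 2.33 and 2.36 by structure and 1.37, 1.40 and 1.37 with equal weight at 2, 12 and 24 months, and the share of counts was 0.298%, 0.294% and 0.277% without the 10 most abundant genes. Causes were not tested. Depth limits the members of few counts, such as Mrps36 and Mrps22, most.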

Other observations

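Cytosolic ribosomal proteins and complex I, 2 other nuclear gene groups of protein synthesis and of the respiratory chain, gave different values with the same fits. Of 76 cytosolic ribosomal protein genes, 0 were called lower at 12 against 2 months, 69 at 24 against 2 months and 19 at 24 against 12 months. The shares of all genes called lower were 2.52%, 7.56% and 1.6%. The cytosolic genes had median log2 fold changes of -0.16, -0.63 and -0.46, and 0 were called higher. With library totals their medians were 0.16, -0.32 and -0.46. Then 19 were called lower at 24 against 2 months and 24 at 24 against 12 months, beside 1.28% and 0.923% of all genes. At 12 against 2 months 1 was called higher, beside 10.8% of all genes. Of 37 complex I genes, 7 were called lower at 12 against 2 months, 19 at 24 against 2 months and 0 at 24 against 12 months. Their medians were -0.34, -0.42 and -0.03. With library totals 0 of them were called lower, and 1 was called higher at 24 against 2 months, beside 17.6% of all genes. The mitochondrial ribosomal protein medians with TMM were -0.22, -0.27 and -0.06. The difference between these groups of genes was not tested.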
